A study of Huso dauricus with 9 samples.

Results

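The genes described here encode the proteins of the cytosolic ribosome in the gut of the kaluga sturgeon (Huso dauricus). They were chosen from the deposited transcript table as the rows whose Swiss-Prot description names a 40S or 60S ribosomal protein and neither a mitochondrial protein nor a kinase. Of 59331 transcripts, 205 met those words. The 88 whose best protein match was a bird (12) or a mammal (76) were kept apart, and from the other 117 the row of highest mean FPKM was taken for each protein name. This left 74 genes, 33 of the small and 41 of the large subunit. All 74 reached an FPKM of 1 in 3 or more libraries and so passed the filter on low values, as did 54200 transcripts in all. FPKM counts fragments for the length of a transcript and the size of the library, so levels of different genes are given per length.

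Gut RNA came from 9 fish of a stock-enhancement release into the Songhua River. The 3 groups are Ori (day 0), D14FL (day 14) and D30FL (day 30), each of 3 different fish caught with seine nets. All carried a fluorescent dye in the snout and were anaesthetised with tricaine, and strain, sex and age are not given in the labels. A further group named in the design text was not analysed here. No group of fish kept in captivity to the later days was analysed here, so time since release, date, food and sequencing batch cannot be told apart. In bulk gut, fewer cells of a type and less RNA per cell cannot be told apart either.

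A ribosome joins a small subunit, which reads the mRNA, to a large subunit, which forms the peptide bond and holds the tunnel through which the new protein leaves. Each subunit is built in the nucleolus from ribosomal RNA and an almost fixed set of proteins, 1 copy of each, apart from the stalk proteins. In vertebrates the mRNAs of these proteins are among the most abundant of a cell, share a pyrimidine tract at their start, and are taken into or out of translation through mTOR signalling, so an mRNA level is not a rate of protein synthesis. The gut lining renews its cells throughout life and makes large amounts of secreted and surface protein.

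The members made up a large share of all transcript signal, and that share varied as much between fish of 1 group as between days. Their summed FPKM came to 16.5%, 10.4% and 12.1% of the library in Ori 1, 2 and 3. It came to 11.4%, 12.2% and 9.49% in the D14FL fish and to 12.4%, 11.5% and 13.5% in the D30FL fish. The highest share was thus found on day 0, and Ori 2 lay close to the lowest. The members moved together from fish to fish: in Ori, 66 of 74 members were highest in fish 1 and 66 were lowest in fish 2. In D14FL, 70 of 74 were lowest in fish 3, and in D30FL 53 were highest in fish 3. The median coefficient of variation among the 3 fish was 30.1% in Ori, 16.9% in D14FL and 11.9% in D30FL.

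Levels of single members spanned from 14.6 to 4559 FPKM over the 9 libraries, with 53 of 74 at 1000 or more and 5 under 100. The median member of the small subunit stood at 1786 FPKM and that of the large subunit at 1372 FPKM. The highest of all was RPS20, a protein of the head of the small subunit, with 7197, 4508 and 5538 FPKM in Ori, 3384, 3618 and 3240 in D14FL and 4925, 4317 and 4303 in D30FL. Its D14FL values all lay below its Ori values, but the log2 change did not pass the test. RPS10 (mean 3151 FPKM) was also among the highest of the small subunit. RPL35 (2747 FPKM), which sits at the mouth of the exit tunnel, RPL11 (2571 FPKM) and RPL13A (2410 FPKM) led the large subunit.

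Among the lowest members, RPS14 stood at 14.6 FPKM, RPS9 at 47.2 and RPS28 at 148 in the small subunit. In the large subunit RPL7L1, a variant of RPL7, stood at 48.1 FPKM and RPL22 at 92.6. For RPS9 and RPL22 a transcript kept apart for its mammalian match was far higher, at 1087 FPKM for RPS9 and 1890 FPKM for RPL22. For RPS14 the transcripts kept apart were as low, at 12.2 and 4.01 FPKM.

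Changes between groups were tested with limma on log2(FPKM + 1) over all 9 libraries, with p-values adjusted over all 54200 transcripts. The median of all tested transcripts moved by 0.38 at day 14 and 0.37 at day 30 against Ori, and by -0.005 between the later days. Log2 changes below are therefore given after subtracting that median, with their standard error (SE), and understate the change of low transcripts. The p-values, and with them the words rose, fell and passed, test the change before that subtraction. The comparisons of day 14 and day 30 share the same Ori fish, so their values are given side by side. The labels do not say more of the fish than that they are separate individuals, and the p-values measure the spread among them.

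At day 14, 2 of 74 members fell and 0 rose. Of all transcripts 2.77% were called, 0.6% lower and 2.17% higher. With bird and mammal matches kept in the choice of 1 row per name, 2 of 79 rose and 1 fell. Of the 2 members that fell, the first was RPL32 (TRINITY_DN30620_c0_g4_i2_1), a protein of the large subunit. The highest RPL32 transcript, kept apart for its bird match at a mean of 1585 FPKM, did not pass. The member averaged 279 FPKM. Its levels were 461, 479 and 522 FPKM in Ori, 184, 188 and 91.0 in D14FL and 227, 185 and 175 in D30FL. The values of both later groups lay below every Ori value. The log2 change was -2.11 (SE 0.34, adjusted p = 0.0264) at day 14, and -1.69 (SE 0.34) at day 30, where it did not pass (adjusted p = 0.0538). Before the median was subtracted, the changes of RPL32 were -1.72 and -1.32.

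The other was RPS14 (TRINITY_DN33762_c0_g1_i4_1), a protein of the platform of the small subunit whose reduced dose underlies the anaemia of the 5q- syndrome in humans. At a mean of 14.6 FPKM this transcript was the lowest of all members, where the median small subunit member stood at 1786. Whether it is the main RPS14 mRNA of the gut was not tested. Its levels were 34.6, 22.8 and 28.6 FPKM in Ori, 5.97, 2.82 and 7.23 in D14FL and 13.3, 13.3 and 2.80 in D30FL. Again both later groups lay below every Ori value. The log2 change was -2.66 (SE 0.51, adjusted p = 0.0414) at day 14 and -2.04 (SE 0.51, adjusted p = 0.0861) at day 30, or -2.28 and -1.67 before the subtraction. Both calls were lost on leaving out any 1 of the 6 Ori and D14FL fish (adjusted p from 0.0623 to 0.0931 for RPL32 and from 0.0791 to 0.119 for RPS14), and that of RPS14 also without D30FL 1 (adjusted p = 0.0523). Over all transcripts those 6 fits called from 138 to 427 at day 14, against 1501 with all fish. The fit without D30FL 1 called 808.

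At day 30, 0 of 74 members passed in limma, against 3.22% of all transcripts (2.49% higher and 0.732% lower). At an unadjusted p under 0.05, 1 member was higher and 3 were lower at day 30, against 18.9% and 5.08% of all transcripts (24% in all), and 1 was higher and 3 were lower at day 14, against 18.5% and 4.64% (23.1% in all). Between day 14 and day 30, 0 members passed, against 0.00185% of all transcripts, and at an unadjusted p under 0.05 there were 0 higher and 1 lower, against 1.65% and 2.19% (3.84% in all). Groups did not overlap for 2 members higher and 10 lower at day 14, where all transcripts gave 27.8% and 6.7%. At day 30 the counts were 9 higher and 5 lower, where all transcripts gave 20.8% and 6.14%.

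To test the change relative to all transcripts itself, each library was also centred on its own median before the fit, an alternative chosen after the data were seen. At day 14, RPL32 and RPS14 were then the 2 members lower, with 0 higher (adjusted p = 0.0225 and 0.0255), where 1.42% of all transcripts were called. At day 30, RPL32 was the 1 member lower, with 0 higher (adjusted p = 0.0413), and RPS14 did not pass (adjusted p = 0.0536), where 1.85% of all transcripts were called. Between the later days 0 members passed, against 0.00185% of all transcripts. At an unadjusted p under 0.05, 0 members were higher and 10 lower at day 14, 0 and 4 at day 30, and 0 and 1 between the later days. The share of all transcripts at that unadjusted p was not computed for this fit, so these counts cannot be set against it.

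**Figure D1:**
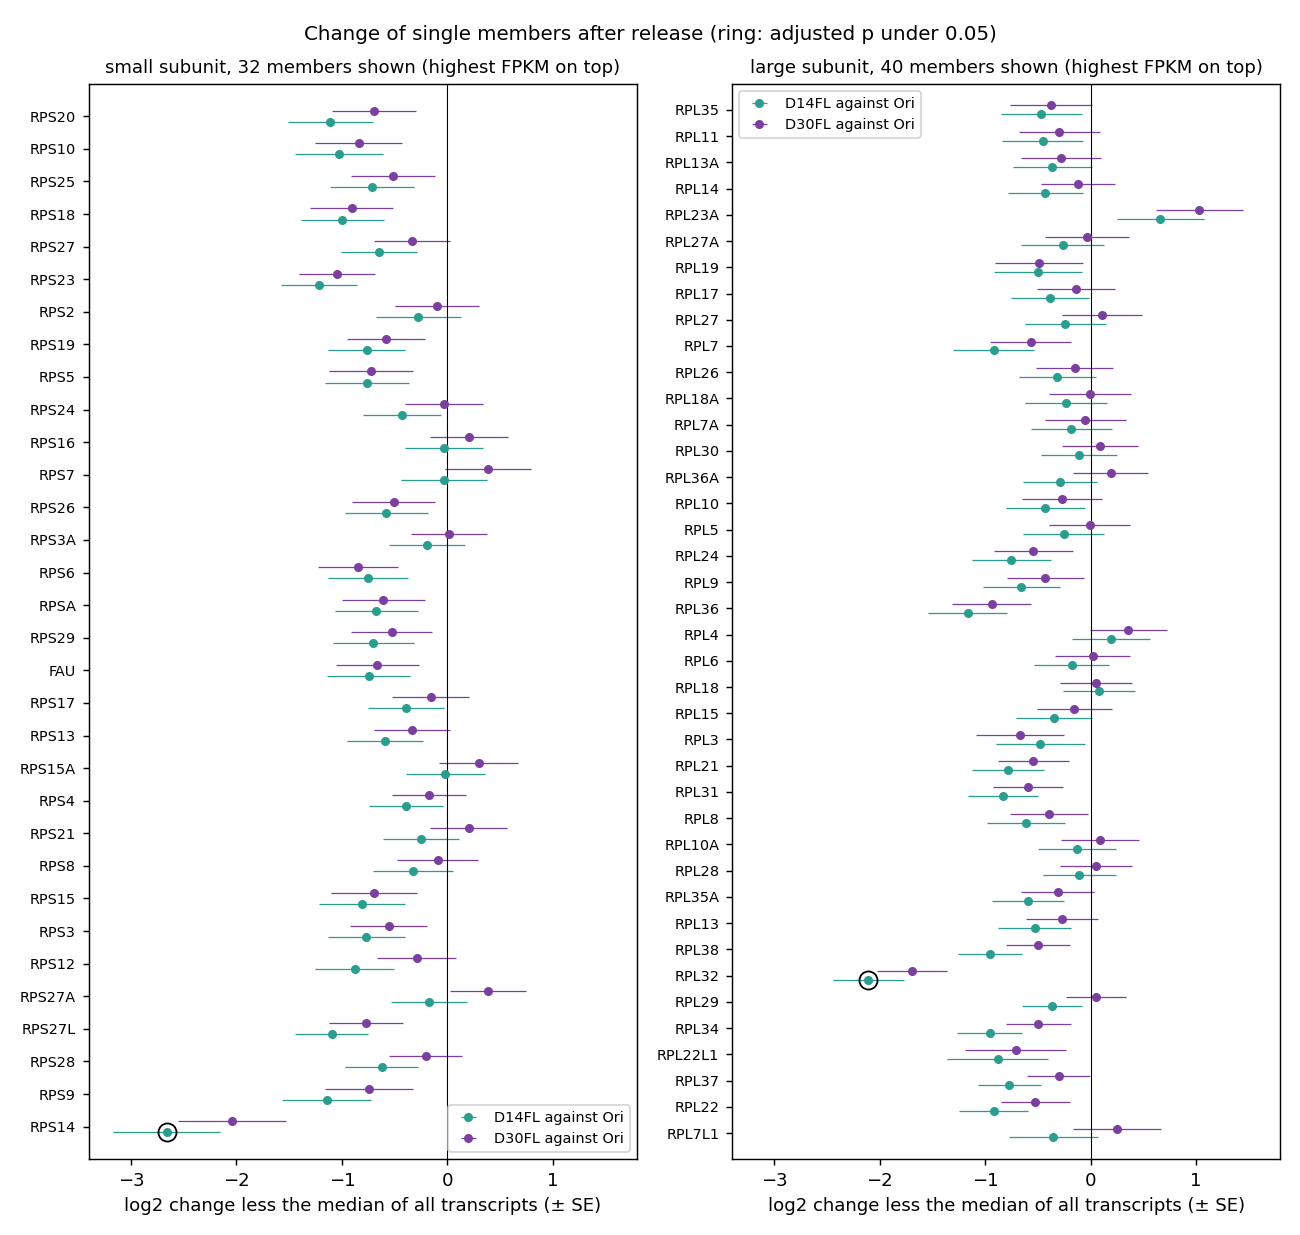
Log2 change (± SE) of the members whose values are reported here against Ori at day 14 (green) and day 30 (purple), less the median of all tested transcripts, with members ordered by mean FPKM; black rings mark adjusted p under 0.05 for the change before that subtraction. Most members lie left of 0 at both days, RPL32 and RPS14 lie farthest left at day 14 and are the 2 ringed, and RPL23A lies farthest right.

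Relative to all transcripts, the members as a group sat low in the later guts. Of the 74, 71 lay below the median of all transcripts at day 14 and 57 at day 30, with medians of -0.52 and -0.30. Since the members vary together from fish to fish, these counts are not 74 separate observations. On the FPKM scale itself, without that subtraction, the medians were -0.13 and 0.07, against 0.38 and 0.37 for all transcripts. The relative shift depended on the scaling at both days. Under quantile scaling the medians of the small and the large subunit were -0.32 and -0.05 at day 14 and 0.04 and 0.10 at day 30. Without Ori 1, whose ribosomal share was the highest, the large subunit median at day 30 was 0.02 and that of the small subunit -0.17.

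By median log2 level the small subunit stood above the large one in every library, by less after release than before on average. The difference of the subunits' median log2 levels was 0.33, 0.49 and 0.34 in Ori, 0.33, 0.25 and 0.15 in D14FL and 0.32, 0.05 and 0.26 in D30FL. D14FL overlapped Ori by 1 fish, D14FL 1, and D30FL 1 lay just below Ori 1, the lowest Ori fish. Mean differences were 0.39 ± 0.09 in Ori, 0.24 ± 0.09 in D14FL and 0.21 ± 0.14 in D30FL (SD, n = 3 each). No p is given for such a score over chosen members.

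In other summaries of the same members Ori again had the highest mean, but D30FL did not lie below D14FL on average as it did by the medians. By mean log2 level the small subunit stood above the large one by 0.61, 0.68 and 0.46 in Ori, 0.43, 0.41 and 0.36 in D14FL and 0.46, 0.40 and 0.48 in D30FL, so that D14FL lay below Ori while D30FL overlapped it. The ratio of summed FPKM, small to large, was 1.22, 1.32 and 1.13 in Ori, 1.05, 1.05 and 0.988 in D14FL and 1.06, 0.977 and 1.09 in D30FL. Here neither later group overlapped Ori. The ratio over all 205 transcripts, those with bird or mammal matches included, was 0.984, 1.04 and 0.900 in Ori, 0.851, 0.836 and 0.797 in D14FL and 0.849, 0.770 and 0.868 in D30FL, again with no overlap with Ori.

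In the fits of single genes the same split appeared as medians of -0.67 for the small and -0.43 for the large subunit at day 14 and -0.51 and -0.27 at day 30. The difference was -0.25 at day 14 and -0.24 at day 30. It stayed below 0 on leaving out any 1 fish, from -0.33 to -0.12 at day 14 and from -0.33 to -0.02 at day 30, the values nearest 0 being those without Ori 2. At day 14, 0 of the 33 small subunit members and 3 of the 41 large subunit members lay above the median of all transcripts. At day 30 these counts were 6 and 11. Here too the members vary together and are not separate observations.

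**Figure D2:**
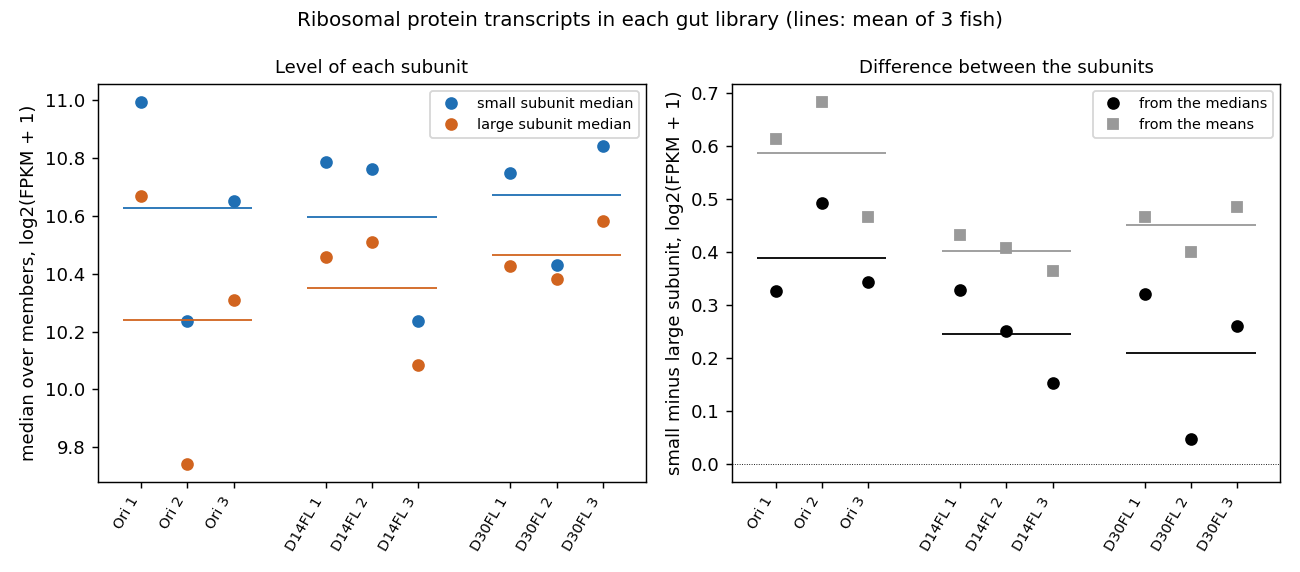
Left, median log2(FPKM + 1) over the 33 small (blue) and 41 large (orange) subunit members in each library; right, the difference between the subunits in each library from the medians (black) and from the means (grey), with lines at the mean of 3 fish. Ori 1 and Ori 2 hold the highest and the lowest values on the left, and on the right the Ori means, 0.39 from the medians and 0.59 from the means, lie above those of D14FL and D30FL while single fish overlap.

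Of the small subunit proteins that line the path of the mRNA, RPS23, RPS3 and RPS2, none passed the test. RPS23, which guards the accuracy of decoding, had 3584, 2587 and 3188 FPKM in Ori, 1856, 1809 and 1563 in D14FL and 2035, 1628 and 2181 in D30FL. Both later groups lay below Ori for RPS23, and the log2 changes were -1.21 (SE 0.36, adjusted p = 0.196) and -1.05 (SE 0.36, adjusted p = 0.268). In the limma fit of only transcripts averaging 5 FPKM or more, RPS23 did pass at day 14 (log2 change -1.20, adjusted p = 0.047). Of all transcripts, 1620 of 19743 were called in that fit. RPS3, at the entry of the mRNA channel, averaged 1330 FPKM in Ori, 984 in D14FL and 1134 in D30FL. RPS2, beside it, averaged 1979, 2070 and 2280 FPKM in the same order.

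RPS10 and RPS20 are tagged with ubiquitin when ribosomes collide. RPS10 had 5430, 3078 and 3587 FPKM in Ori, 2344, 3153 and 2113 in D14FL and 2785, 2211 and 3663 in D30FL, with groups that overlapped. RPS18, a head protein, had 4763, 2831 and 3087 FPKM in Ori, 2471, 2583 and 1822 in D14FL and 2407, 2046 and 2768 in D30FL. Both later groups of RPS18 lay below Ori, but neither change passed (adjusted p = 0.359 at day 14 and 0.413 at day 30, where the log2 change was -0.91, SE 0.39). RPS15, needed for export of the young small subunit, showed 1384 ± 460 FPKM in Ori, 1025 ± 279 in D14FL and 1102 ± 326 in D30FL (SD, n = 3 each).

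RPS6, the small subunit protein that S6 kinase phosphorylates below mTOR, had 2900, 1726 and 1953 FPKM in Ori, 1830, 1764 and 1417 in D14FL and 1716, 1150 and 1831 in D30FL. Its groups overlapped, and the log2 changes of -0.75 and -0.85 (SE 0.38 each) did not pass. RPSA, which is also known as a laminin receptor at the cell surface, averaged 2023, 1639 and 1695 FPKM in Ori, D14FL and D30FL. RPS4 averaged 1189, 1146 and 1320 FPKM in the same order. RPS19, the gene most often mutated in human Diamond-Blackfan anaemia, averaged 2367, 1825 and 2023 FPKM.

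RPS27A and FAU each encode a small subunit protein made as a fusion. RPS27A, which encodes ubiquitin joined to a small subunit protein, had 977, 516 and 784 FPKM in Ori, 784, 1054 and 745 in D14FL and 1108, 1499 and 1158 in D30FL. Its D30FL values lay above all the others, with a log2 change of 0.39 (SE 0.36, adjusted p = 0.221) against Ori. FAU, which joins a ubiquitin-like protein to a small subunit protein, averaged 1758, 1317 and 1387 FPKM in Ori, D14FL and D30FL.

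RPS27 averaged 2589 FPKM in Ori, 2144 in D14FL and 2635 in D30FL. RPS27L, whose mammalian counterpart is a target of p53, had 514, 573 and 335 FPKM in Ori, 299, 305 and 244 in D14FL and 373, 241 and 474 in D30FL. Its D14FL values lay below Ori, with a log2 change of -1.10 (SE 0.35, adjusted p = 0.242). An RPS27L transcript kept apart for its bird or mammal match was higher, at a mean of 626 FPKM. It held 43.8% to 58.2% of the pair in Ori and 66.4% to 69.4% in D14FL. The sum of the pair, 1142, 1020 and 802 FPKM in Ori and 960, 996 and 726 in D14FL, overlapped. RPS12 and RPS21 had among the smallest p-values of the small subunit between day 14 and day 30, with log2 changes of 0.58 (SE 0.37) and 0.44 (SE 0.36) and adjusted p-values near 1 for both. RPS9 (log2 change -1.14, SE 0.42, at day 14) and RPS28 (-0.62, SE 0.35) did not pass either.

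In the large subunit, RPL3, next to the peptidyl transferase centre, had 1929, 760 and 1266 FPKM in Ori, 1242, 1553 and 796 in D14FL and 1067, 877 and 1070 in D30FL. RPL4, which reaches into the exit tunnel, had 1305, 648 and 1109 FPKM in Ori, 1423, 1593 and 1378 in D14FL and 1727, 1698 and 1464 in D30FL. Both later groups of RPL4 lay above Ori, and the log2 changes of 0.19 and 0.36 (SE 0.37 each) did not pass (adjusted p = 0.353 and 0.244). RPL10, the protein that completes the young large subunit, averaged 1624, 1523 and 1705 FPKM in Ori, D14FL and D30FL.

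RPL5 and RPL11 join the 5S RNA and, when ribosome building is disturbed, bind MDM2. RPL5 averaged 1419, 1485 and 1736 FPKM and RPL11 2586, 2433 and 2694 FPKM in Ori, D14FL and D30FL, with overlapping groups. RPL7A averaged 1559, 1712 and 1852 FPKM, RPL10A 767, 870 and 998 FPKM and RPL36A 1395, 1488 and 2031 FPKM in the same order. The D30FL values of RPL36A lay above both other groups, with a log2 change of 0.19 (SE 0.35, adjusted p = 0.342) against Ori. RPL13A, which in mammals leaves the ribosome to silence inflammatory mRNAs, averaged 2363, 2372 and 2495 FPKM.

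RPL36 had 2364, 1326 and 2010 FPKM in Ori, 1110, 1308 and 856 in D14FL and 1258, 1026 and 1501 in D30FL, and its log2 change at day 14 was -1.16 (SE 0.37, adjusted p = 0.234). Its D14FL values lay below Ori and its D30FL values overlapped both. RPL38, required in mouse embryos for translation of some Hox mRNAs, had a log2 change of 0.45 (SE 0.30) from day 14 to day 30, and RPL37 one of 0.46 (SE 0.30). Neither of the 2 passed. The members of the RNA-binding RPL22 and its variant RPL22L1, which can replace it, averaged 105 and 214 FPKM in Ori. They averaged 75.6 and 139 in D14FL and 96.6 and 164 in D30FL, with no call. The RPL22 member held only 4.04% to 5.12% of its pair in Ori. The RPL22 transcript kept apart for its mammalian match averaged 1890 FPKM, so the averages of the members do not rank the 2 genes.

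RPL23A, which sits at the tunnel exit where signal recognition particle docks, was the member of highest change at both days. The member transcript (TRINITY_DN28043_c0_g1_i4_2) had 1484, 607 and 1315 FPKM in Ori, 2320, 2427 and 1857 in D14FL and 2873, 2783 and 2748 in D30FL. The 3 groups did not overlap. Log2 changes were 0.66 (SE 0.41, adjusted p = 0.164) at day 14 and 1.03 (SE 0.41, adjusted p = 0.0787) at day 30, so neither passed, though the change at day 30 passed under quantile scaling (adjusted p = 0.0397) and when only transcripts averaging 5 FPKM or more were tested (adjusted p = 0.032).

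A further transcript named RPL23A went the other way. TRINITY_DN24062_c0_g1_i2_1 had 1599, 1144 and 1155 FPKM in Ori, 245, 270 and 91.0 in D14FL and 214, 104 and 255 in D30FL. It fell at both days, with log2 changes of -3.19 (SE 0.47, adjusted p = 0.0156) and -3.21 (SE 0.47, adjusted p = 0.0155). It held between 46.8% and 65.3% of the FPKM of the pair in Ori, between 4.67% and 10.03% in D14FL and between 3.6% and 8.49% in D30FL. The sum of both transcripts was 3083, 1751 and 2470 FPKM in Ori, 2565, 2697 and 1948 in D14FL and 3087, 2886 and 3003 in D30FL, with overlap between Ori and both later groups.

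The fall of that RPL23A transcript kept its direction in all 9 fits that left out 1 fish. The call at day 14 was lost without Ori 2, Ori 3, D14FL 1 or D14FL 3 (adjusted p from 0.0512 to 0.0644), and the call at day 30 without Ori 1, Ori 3, D30FL 1 or D30FL 2 (adjusted p from 0.0524 to 0.0662). Sturgeons descend from ancestors that doubled their genome, and whether the 2 transcripts are gene copies, alleles or forms of 1 gene was not tested. Transcripts with near-identical stretches may also share reads.

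Of the 79 protein names, 23 had 2 or 3 transcripts with a mean of 50 FPKM or more, bird and mammal matches included. For several names the proportions overlapped between the groups. The second RPS2 transcript held between 14.4% and 19.0% of the FPKM of its pair in Ori, between 16.0% and 17.9% in D14FL and between 16.4% and 19.5% in D30FL. For RPL21 these ranges were 31.8% to 41.3%, 32.1% to 37.1% and 31.4% to 39.5%.

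A few names, singled out after their values were seen, shifted as RPL23A did. The second RPL18 transcript (TRINITY_DN30706_c0_g1_i1_1) held 38.4% to 42.7% of its pair in Ori, 19.0% to 24.2% in D14FL and 18.9% to 21.8% in D30FL. Its own log2 changes, -1.26 (SE 0.30, adjusted p = 0.122) and -1.37 (SE 0.30, adjusted p = 0.0841), did not pass. The second RPS19 transcript held 19.0% to 22.4% in Ori, 11.8% to 12.4% in D14FL and 13.04% to 13.42% in D30FL, with a log2 change of -1.66 (SE 0.32, adjusted p = 0.0577) at day 14. A low RPS27 transcript (TRINITY_DN28252_c0_g1_i1_1) fell at day 30, from 127, 71.2 and 116 FPKM in Ori to 28.1, 26.9 and 39.1 in D30FL (log2 change -2.06, SE 0.33, adjusted p = 0.027). Its call was lost without Ori 1, Ori 3, D30FL 1 or D30FL 2 (adjusted p from 0.0758 to 0.11).

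The share of the falling RPL32 member moved in the same way. It held 21.7% to 32.1% of the FPKM of the 3 RPL32 transcripts in Ori, 5.68% to 8.28% in D14FL and 7.36% to 8.95% in D30FL. The highest of them, with a bird match, had 1458, 849 and 1325 FPKM in Ori, 1836, 1816 and 1293 in D14FL and 1945, 1929 and 1813 in D30FL, and its log2 changes of 0.08 and 0.31 (SE 0.36 each) did not pass. The sum of the 3 was 2124, 1491 and 2129 FPKM in Ori, 2327, 2275 and 1604 in D14FL and 2531, 2514 and 2306 in D30FL.

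**Figure D3:**
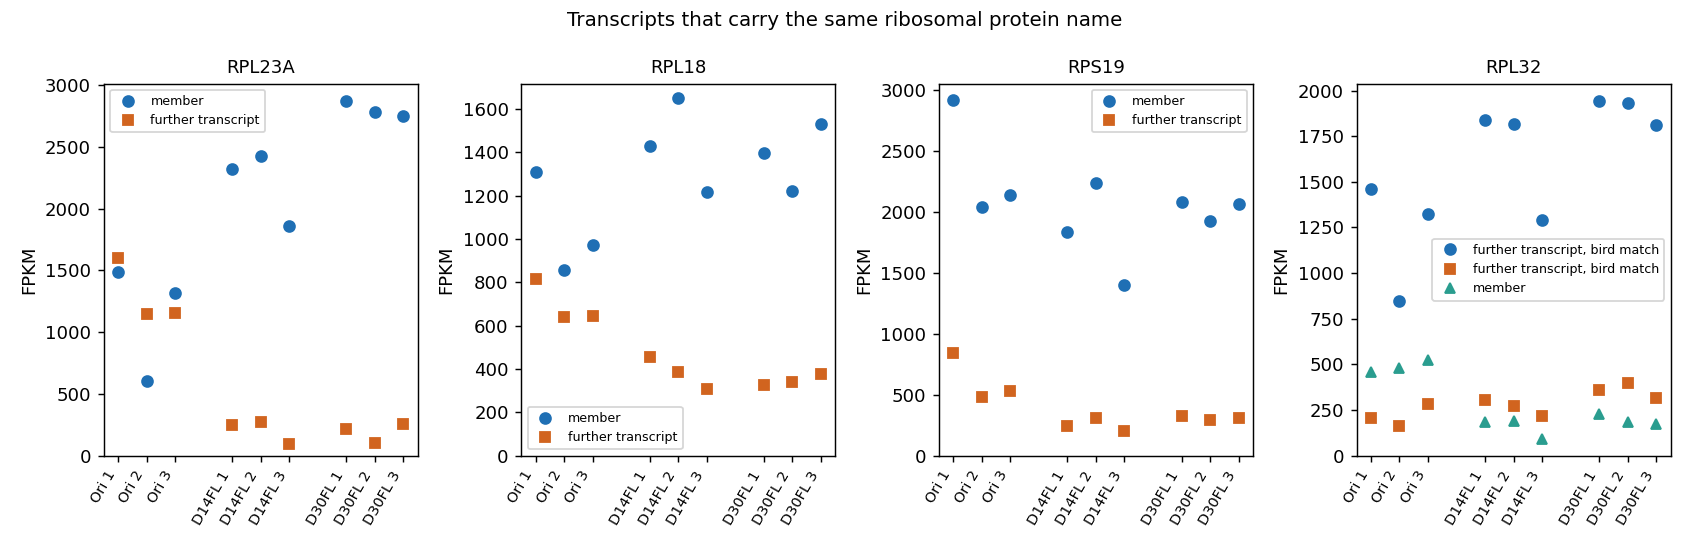
FPKM in each of the 9 libraries of the transcripts with a mean of at least 50 FPKM that carry the names RPL23A, RPL18, RPS19 and RPL32 (a panel each, from 0). In each panel 1 transcript is higher in the 3 Ori fish than in all 6 later fish, while the transcript of highest mean in that panel does not separate downward in the same way; for RPL23A it is higher in all 6 later fish.

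In all, 43 further transcripts of 30 member names had no bird or mammal match, and 42 of them were tested. At day 14, 3 rose and 2 fell, where 2.17% and 0.6% of all transcripts did. At day 30, 1 rose and 3 fell, where 2.49% and 0.732% of all transcripts did. These counts ran from 0 to 4 in each direction at day 14, and from 0 to 2 higher and 0 to 3 lower at day 30, on leaving out 1 fish. With each library centred on its median, 0 rose and 2 fell at day 14 and 0 rose and 3 fell at day 30. Of all transcripts 1.42% and 1.85% were called in that fit. Besides RPL23A and RPS27, the falling one was a transcript of RPS28 with a reptile match, at 5.12, 1.29 and 3.36 FPKM in Ori and under 0.01 FPKM in all later fish. That RPS28 transcript passed the filter only through the Ori fish, and the RPS12 transcript named below only through the later fish. The risers were low: a transcript of RPL37 whose best match is an oyster (36.7, 30.3 and 27 FPKM in Ori and 100, 83.7 and 55.4 in D14FL), and transcripts of RPL7A and RPS12 matched to synthetic constructs, at means of 3.48 and 2.90 FPKM. The RPL37 transcript rose at both days (adjusted p = 0.0443 and 0.0365), and both calls were lost when libraries were scaled by the median of ratios (adjusted p 0.21 and 0.151) or by quantiles (0.0807 and 0.0722), and without any 1 Ori fish (0.0754 to 0.13).

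The transcripts kept apart for a bird or mammal match fell into 2 ranges of level, split here at a mean of 20 FPKM after the values were seen. In the upper range were 14 transcripts, with means from 28 to 3396 FPKM. Of these, 0 of 14 passed at either day in limma, where 2.77% and 3.22% of all transcripts did. At an unadjusted p under 0.05, 3 were lower and 0 higher at day 14, where all transcripts gave 4.64% and 18.5%. At day 30, 2 were lower and 2 higher, where all transcripts gave 5.08% and 18.9%. The highest was RPL37A, at 4361, 1716 and 3117 FPKM in Ori, 2893, 4119 and 2885 in D14FL and 3889, 3768 and 3820 in D30FL. RPL22 (mean 1890 FPKM) and RPL23 (1777 FPKM) followed. For RPL23, a protein of the large subunit where it meets the small one, with no transcript on the other side of the split by species, the levels were 1451, 700 and 1194 FPKM in Ori, 2070, 2148 and 1540 in D14FL and 2247, 2331 and 2315 in D30FL, with log2 changes of 0.45 and 0.73 (SE 0.38 each) that did not pass. Because ribosomal proteins hardly differ between vertebrates, a mammal or bird as best match does not by itself place a transcript outside the sturgeon.

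The lower range held 74 transcripts of 59 protein names, 68 with a mammal and 6 with a bird as best match, and 54 of the names also had a member. The median transcript stood at 1.84, 1.72 and 0 FPKM in Ori, 7.86, 5.85 and 4.06 in D14FL and 4.85, 3.47 and 4.76 in D30FL. Every later fish thus lay above every Ori fish. Of the 74, 69 were tested: 28 rose and 0 fell at day 14, and 11 rose and 0 fell at day 30, where 2.17% and 2.49% of all transcripts rose. The filter took FPKM from any group. Transcripts under 1 FPKM in all Ori fish, such as that of RPS24 below, were thus tested only through the later fish. A transcript under 1 FPKM in any 1 Ori fish also needed later fish to reach 3 libraries. In Ori 3 alone, 50 of the 74 were under 0.01 FPKM. The counts of risers therefore include transcripts that entered the test through the fish where they were high. The median log2 change was 1.40 at day 14 and 0.99 at day 30, while that of all members was -0.52 and -0.30.

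The RPS24, RPS27 and RPL39 transcripts serve as examples from both subunits. That of RPS24 had 0.359, 0.634 and 0 FPKM in Ori, 10.8, 8.97 and 6.37 in D14FL and 8.05, 3.90 and 6.10 in D30FL (log2 change 2.48, SE 0.39, adjusted p = 0.00663 at day 14). The RPS27 transcript had 0.976, 2.83 and 0.568 FPKM in Ori, 20.8, 13.5 and 14.5 in D14FL and 12.1, 7.49 and 11.4 in D30FL (log2 change 2.51, SE 0.40, adjusted p = 0.00696). RPL39, the small protein of the tunnel wall, was found only among these transcripts, with 3.83, 3.17 and 0 FPKM in Ori, 28.8, 22.1 and 11.0 in D14FL and 10.4, 11.8 and 14.5 in D30FL. It rose at day 14 (log2 change 2.51, SE 0.56, adjusted p = 0.0264) and did not pass at day 30 (adjusted p = 0.0511).

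Low transcripts of RPL5, RPL11, RPL10, RPL4, RPS6, RPS23 and RPS25 also rose at day 14, each with a log2 change between 1.69 and 2.08, while the members of those names did not. A transcript of RPL22 rose at day 30 and not at day 14 (adjusted p = 0.0183 and 0.0826), a difference between days that was itself not called. Ori 3 stood apart here: 50 of the 74 transcripts were under 0.01 FPKM in that fish, against 4 in Ori 1 and 3 in Ori 2, and 1 to 4 in the later fish. Without Ori 3 the median log2 change was 0.90 at day 14 and 0.48 at day 30, and 3 and 0 transcripts rose. Calls over all transcripts in that fit were 176 and 157 of 53097, against 1501 and 1746 of 54200 with all fish. The count at day 14 was also 3 without Ori 2, 18 without D30FL 1 and 2, 4 and 10 without D14FL 1, 2 and 3. All transcripts called at day 14 in these fits numbered 152, 808, 138, 261 and 240, in the same order. The count at day 30 was 0 without Ori 1 or D30FL 1, 3 without D30FL 2, 4 without Ori 2, and 5 and 6 without D14FL 1 and 2. All transcripts called at day 30 numbered 180, 98, 331, 501, 721 and 1115, in the same order. With a pseudocount of 0.01, 5 and 3 rose, and under quantile scaling 6 and 3. Of all 54200 transcripts, 1108 and 1165 were called with that pseudocount and 897 and 937 under quantile scaling. With each library centred on its median, 5 rose and 1 fell at day 14, and 4 rose and 0 fell at day 30, where 1.42% and 1.85% of all transcripts were called. The median change stayed above 0 in all of these fits. Summed over the 74, these transcripts came to between 82.7 and 624 FPKM in a library, where the members came to between 83386 and 144893. The organism from which they come was not tested.

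**Figure D4:**
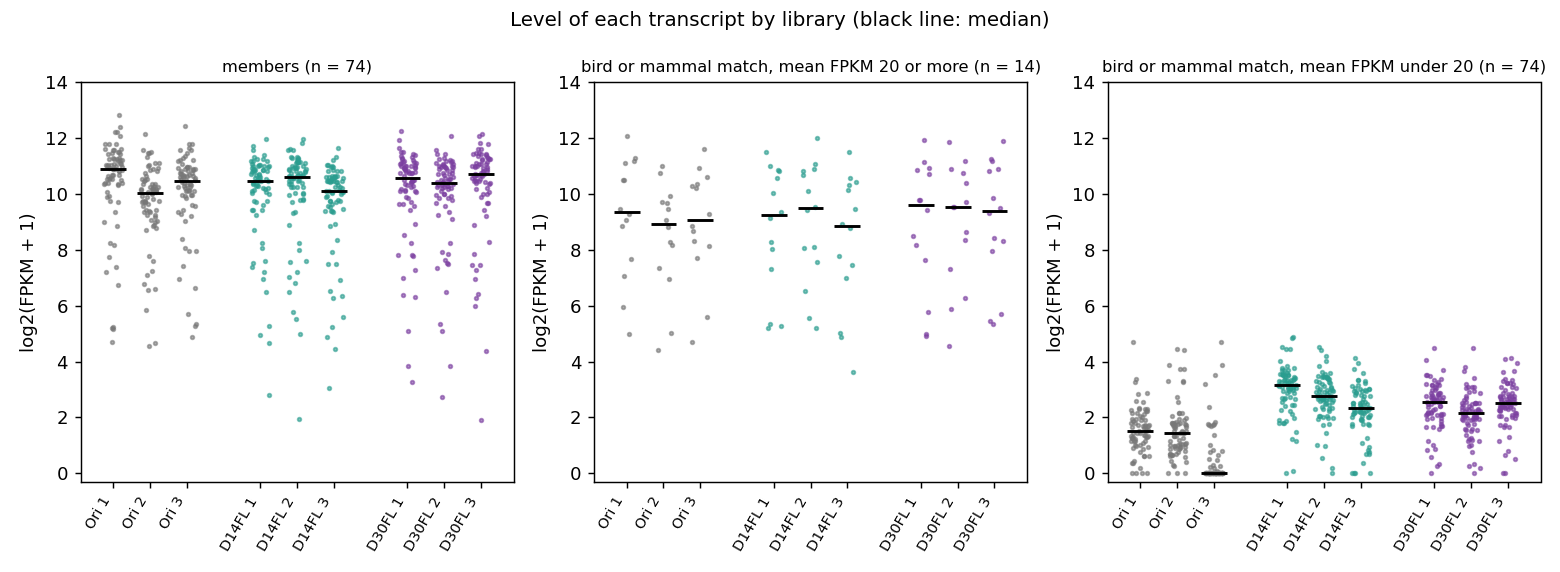
Log2(FPKM + 1) of each transcript in each library for the 74 members, the 14 transcripts with a bird or mammal match and a mean of 20 FPKM or more, and the 74 below that mean; black lines are medians. In the right panel the medians of the 6 later fish lie above those of the 3 Ori fish and Ori 3 has its median at 0, while in the left panel the groups overlap.

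The acidic stalk proteins RPLP0, RPLP1 and RPLP2, which draw elongation factors to the large subunit, are described as 60S acidic ribosomal proteins, words the choice of members did not match. RPLP0 had 2692, 1254 and 1797 FPKM in Ori, 2228, 2372 and 2034 in D14FL and 2395, 2536 and 2834 in D30FL. RPLP1 averaged 3746, 3272 and 4030 FPKM in Ori, D14FL and D30FL. The main RPLP2 transcript had 7634, 5403 and 5417 FPKM in Ori, 4821, 4595 and 2991 in D14FL and 4028, 2917 and 6072 in D30FL. Of 6 stalk transcripts without a bird or mammal match, 0 passed at either day in limma, where 2.77% and 3.22% of all transcripts did. At an unadjusted p under 0.05 there were 0 and 1, where all transcripts gave 23.1% and 24%. A row named RPL41 was not found among the 205.

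Several genes that build ribosomes rose after release. Of 61 assembly and rRNA processing factors, 51 were found and tested. At day 14, 4 rose and 0 fell, and at day 30, 11 rose and 0 fell, where 2.17% and 2.49% of all transcripts rose. The median log2 change was 0.13 at day 14 and 0.55 at day 30, and 44 of 51 lay above the median of all transcripts at day 30. The difference between this list and the ribosomal proteins was not tested.

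GNL2, a GTPase of the nucleolus that matures the large subunit, had 7.24, 8.37 and 9.77 FPKM in Ori, 44.0, 42.8 and 29.0 in D14FL and 43.5, 50.6 and 27.1 in D30FL. It rose at both days, with log2 changes of 1.67 (SE 0.32, adjusted p = 0.0132) and 1.72 (SE 0.32, adjusted p = 0.0124). SBDS, which frees the young large subunit of its anti-association factor, had 14.8, 22.1 and 21.3 FPKM in Ori, 76.3, 79.1 and 61.2 in D14FL and 97.9, 111 and 55.7 in D30FL. It rose as well, by 1.47 (SE 0.33, adjusted p = 0.0200) and 1.72 (SE 0.33, adjusted p = 0.0132). The groups of both genes did not overlap with Ori.

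Nucleolin, encoded by NCL, and LTV1, which escorts the young small subunit out of the nucleus, rose at both days (NCL by 1.12 and 1.09, SE 0.34 each, adjusted p = 0.0423 and 0.0425; LTV1 by 1.02 and 1.14, SE 0.32 each, adjusted p = 0.0435 and 0.0335). UTP4 and WDR43, of the early small subunit processome, rose at day 30 (1.52, SE 0.35, adjusted p = 0.0234, and 1.09, SE 0.29, adjusted p = 0.0286). Calls in this list depended on the fish and the scaling. At day 30, 0 of 51 passed without Ori 1 or D30FL 1, 1 without Ori 3, 4 without D30FL 2, 5 without Ori 2 or D14FL 1, and 2 under median-of-ratios or quantile scaling. All transcripts called in those fits numbered 180, 98, 157, 331, 501, 721, 1277 and 937, in the same order, against 1746 without these changes. With each library centred on its median GNL2 and SBDS were the 2 called at each day, and NCL, LTV1, UTP4 and WDR43 did not pass. The list median at day 30 ran from 0.40 to 0.83 on leaving out 1 fish. At day 14 the count ran from 0 to 7, being 0 without Ori 2, D14FL 1 or D14FL 2 and 1 without Ori 1, Ori 3 or D14FL 3, and the median was -0.005 without D14FL 2. Over all transcripts, the fits without 1 Ori or D14FL fish called from 138 to 427 at day 14.

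Other parts of protein synthesis showed few calls. Of all transcripts, for comparison, 2.77% were called at day 14 and 3.22% at day 30, and 23.1% and 24% had an unadjusted p under 0.05. Of 24 genes of RNA polymerase I and 5S RNA transcription, 19 were found, with 0 called at day 14 and 1 at day 30. That gene was POLR1E, with 3.90, 6.52 and 8.13 FPKM in Ori and 18.4, 18.7 and 17.5 in D30FL (log2 change 1.09, SE 0.31, adjusted p = 0.0335). Leaving out 1 fish, 0 to 2 genes of this list were called higher and 0 to 1 lower at day 14 and 0 to 3 higher at day 30, and the call of POLR1E held only without D14FL 3 or D30FL 3. Of 36 initiation factors, 29 were found. Among them EIF3M rose at day 14 (1.09, SE 0.35, adjusted p = 0.0471) and EIF2B2 at day 30 (0.81, SE 0.26, adjusted p = 0.0378). On leaving out 1 fish the counts ran from 0 to 2 at day 14 and from 0 to 4 at day 30. The call of EIF3M was lost without any 1 Ori or D14FL fish or D30FL 1, and that of EIF2B2 held only without D14FL 3 or D30FL 3. EIF2B2 belongs to the exchange factor that recharges EIF2, and EIF3M to the scaffold on the small subunit. Of 10 genes listed for elongation only 4 were found, EEF2, EEF1G, EIF5A and the kinase EEF2K. Of the 4, 0 passed, with 0 and 1 at an unadjusted p under 0.05. EEF2, which moves the ribosome along the mRNA, averaged 940 FPKM in Ori, 1182 in D14FL and 1184 in D30FL. With each library centred on its median, POLR1E, EIF3M and EIF2B2 did not pass (adjusted p = 0.0881, 0.144 and 0.147).

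Of 26 genes of the signalling that governs translation of ribosomal protein mRNAs, 25 were found. Among them DDIT4 rose at both days and 0 fell. DDIT4, an inhibitor of mTOR complex 1 that stress hormones and low oxygen induce, had 3.25, 2.71 and 3.31 FPKM in Ori, 274, 99.8 and 271 in D14FL and 137, 306 and 126 in D30FL. Its log2 changes were 5.20 (SE 0.44, adjusted p = 0.000591) and 5.05 (SE 0.44, adjusted p = 0.000664). EIF4EBP2, a brake on cap-dependent initiation, had 3.82, 7.96 and 10.4 FPKM in Ori and 20.7, 22.3 and 25.2 in D14FL, where the adjusted p was 0.0638. LARP1, which binds the pyrimidine tract of ribosomal protein mRNAs, averaged 2.11, 3.87 and 4.58 FPKM and did not pass either.

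Of 9 ribosome-associated proteins, 5 were found: RACK1, NACA, BTF3, TPT1 and UBB. Of the 5, 0 passed, with 2 higher at each day at an unadjusted p under 0.05. RACK1, a scaffold on the small subunit that works in collision sensing, averaged 813, 939 and 957 FPKM in Ori, D14FL and D30FL. Of 78 proteins of the mitochondrial ribosome, 59 were found. Below the median of all transcripts lay 55 at day 14 and 48 at day 30, with median log2 changes of -0.68 at day 14 and -0.42 at day 30. Of these, 0 passed at day 14, with 2 higher and 6 lower at an unadjusted p under 0.05, and at day 30 MRPL4 rose (0.95, SE 0.29, adjusted p = 0.0378). On leaving out 1 fish, 0 to 1 passed higher and 0 to 2 lower at day 30. The call of MRPL4 held only without D14FL 3 or D30FL 3, with 2 others lower in the fit without D30FL 3, and it did not pass with each library centred on its median (adjusted p = 0.135).

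**Figure D5:**
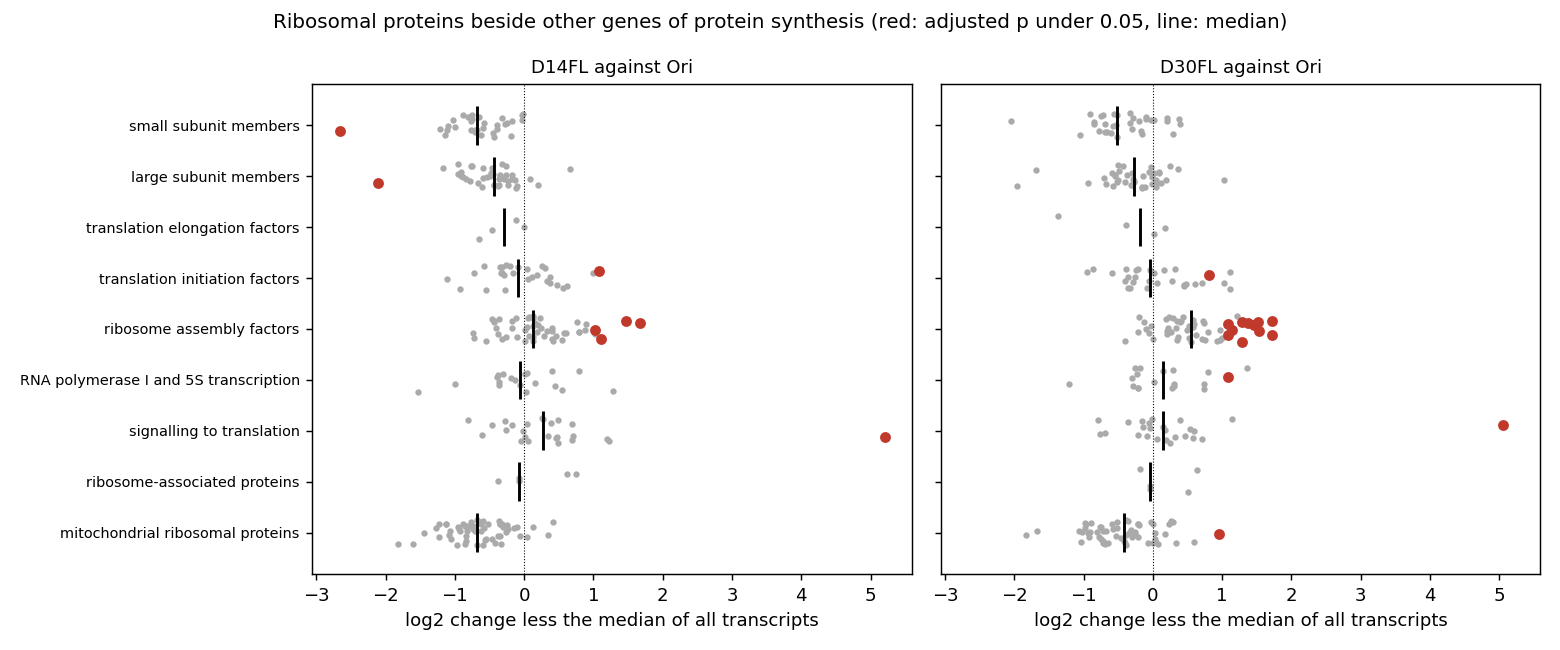
Log2 change against Ori, less the median of all transcripts, of each tested gene in the ribosomal protein subunits and 7 other lists of protein synthesis at day 14 (left) and day 30 (right); red points have adjusted p under 0.05 for the change before that subtraction, and lines are medians. Red points lie left of 0 for 1 small and 1 large subunit member at day 14, and right of 0 for 4 and 11 ribosome assembly factors; the point near 5 is DDIT4.

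Markers of some cell types differed between the days, and those of gut epithelium were present in every library. Only dividing cells, exocrine pancreas and gut epithelium are described here. Markers of smooth muscle, erythrocytes, B and plasma cells, T cells, macrophages and granulocytes, skeletal muscle and liver were also scored. In each of those lists 0 genes passed at either day with all 9 fish, where 2.77% and 3.22% of all transcripts were called. Markers of dividing cells, 12 of 12 found, summed to between 222 and 388 FPKM in Ori, 114 and 149 in D14FL and 97.2 and 294 in D30FL, and 3 of 12 fell at day 14. Of all transcripts 0.6% fell at day 14. Markers of exocrine pancreas, 9 of 15 found, summed to between 75.7 and 147 FPKM in Ori, 418 and 9034 in D14FL and 1510 and 4939 in D30FL, with 3 of 9 called higher at day 14 and 7 at day 30. Of all transcripts 2.17% and 2.49% were called higher. Gut epithelium, 12 of 16 found, summed to between 3859 and 13597 FPKM in Ori, 2672 and 5826 in D14FL and 1590 and 5762 in D30FL. The sums are led by the fatty acid and bile acid binding genes FABP2 and FABP6, which averaged 3137 and 5527 FPKM in Ori, 1599 and 1325 in D14FL and 1381 and 1465 in D30FL, with no call. Over the 12 genes the median log2 change was 0.48 at day 14 and -0.07 at day 30. CDH1, the adhesion protein of epithelial cells, rose at both days (3.49 and 4.51, SE 0.50 each, adjusted p = 0.00506 and 0.00172) and 0 fell, and at an unadjusted p under 0.05, 6 were higher and 2 lower at day 14 and 3 and 1 at day 30. All transcripts gave 18.5% and 4.64% at that unadjusted p at day 14 and 18.9% and 5.08% at day 30.

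On leaving out 1 fish, 0 to 5 markers of dividing cells fell at day 14, being 0 without any 1 Ori or D14FL fish and 1 without D30FL 1. Of the pancreas markers 1 to 6 rose at day 14, being 1 without Ori 2 or D14FL 1, and 1 to 9 rose at day 30, being 1 without D30FL 1 and 2 without Ori 1 or D30FL 2. Over all transcripts, the fits without 1 Ori or D14FL fish called from 138 to 427 at day 14. At day 30, 98 of all transcripts passed without D30FL 1, 180 without Ori 1 and 331 without D30FL 2. The call of CDH1 held in all of these fits. D14FL 3, in which 70 of 74 members were lowest of the group, also held the highest pancreas sum of all 9 fish. The other groups did not show this pairing. In D30FL, 45 of 74 members were lowest in D30FL 2 (pancreas sum 2306 FPKM), while D30FL 1 had the highest sum (4939 FPKM). In Ori, 66 were lowest in Ori 2, whose sum of 106 FPKM lay between those of Ori 1 and Ori 3. None of the markers found in these 3 lists was at 0 in all libraries. Their part in the levels of the ribosomal proteins was not tested.

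From day 14 to day 30 most members were nominally higher, 69 of 74 by the fitted change, with a median of 0.21 in the small and 0.22 in the large subunit. The 2 groups did not overlap for 18 members higher and 1 lower, where all transcripts gave 3.83% and 4.46%. The members vary together from fish to fish, so these counts are not 74 separate observations. Without D14FL 3 the medians were 0.09 and 0.12, and without D30FL 3 they were 0.05 and 0.09.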

How the data were processed

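The authors deposited 1 annotated table with an FPKM value for each of 59331 transcripts in 9 gut libraries. The unit rests on the name of the table. The values sum to between 810895 and 929953 per library, so a table of TPM with rows removed could not be told from it. Libraries were made from poly(A) RNA with digestion of the second cDNA strand, per the labels' protocols. Of tools and builds, cutadapt 1.9 and mm10, a mouse build of no given role, stand in the submitters' processing notes. The row names have the form of a de novo assembly. The quantifier is not given in the sources used here. Whole reads could not be recovered, so depth is unknown and no counting interval is given. Without sequences or a genome, no coordinates are given.

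Protein names were taken from the Swiss-Prot description, since its gene name field held another symbol in 44 of 205 rows. The members and the lists of other genes were chosen with earlier results of these data known. The species class of each best match was assigned by hand from its name.

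log2(FPKM + 1) was tested with limma 3.58.1 (lmFit, contrasts, eBayes with trend; residual degrees of freedom 6, prior 5.73) in R 4.3.3 over all 9 libraries without a block, two-sided, with Benjamini-Hochberg adjustment over 54200 transcripts and a threshold of 0.05. The fit was checked on simulated data. Other software was data.table (version 1.17.8), Python 3.11.15, numpy 2.4.6, pandas 2.3.3 and matplotlib 3.10.9. Genes are named if called, of highest or lowest mean, of smallest p in a subunit or list, or on a list of known roles; exceptions are marked. A few members count in every total but are not reported here by name. Printed log2 changes have the median of all transcripts subtracted, while the p-values test the change before it. Alternatives were other pseudocounts, filters, scalings, member choices and fits, and each library left out.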

Additional observations from a re-analysis of the deposited data

How the results depend on the processing

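Each count of called members and each subunit median was recomputed with pseudocounts of 0.1 and 0.01, without the filter, with a mean FPKM of at least 5, under 2 other scalings, with a replicate block, without the trend, on the 2 groups compared alone, with other choices or sums of the members' transcripts and without each library. Of 276 such values, 255 kept within the limits set (1.5 times a count, or 1 SD between libraries for a median). These limits were wide: the SD was 0.44 for the small subunit median, 0.43 for the large one and 0.11 for their difference. Under quantile scaling the large subunit median at day 30 went from -0.27 to 0.10 and still counted as kept. So did the day 14 count when bird and mammal matches were kept, with 2 higher and 1 lower. The number kept therefore says little of how stable a value is. Of 2 members called at day 14, 1 was called with a pseudocount of 0.01 or without the trend and 0 with the replicate block. Of all 54200 transcripts, 1108, 1148 and 315 were called at day 14 in those fits. With a mean FPKM of at least 5, 3 members were called at day 14 (0 higher, 3 lower), with RPS23 added. All transcripts gave 1620 of 19743 there. The fish differ between groups, so replicate numbers pair nothing by design. Deviations of log2(FPKM + 1) from the group means correlated from -0.315 to 0.0843 between same-numbered libraries. At day 14, 315 transcripts passed with the block against 1501 without. The block uses up degrees of freedom, so that drop is no measure of pairing. The 0 members called at day 30 became 3 with a mean FPKM of at least 5 (1 higher, 2 lower) or under median-of-ratios scaling (0 higher, 3 lower). Of all transcripts, 1802 of 19743 and 1277 of 53230 were called at day 30 in those fits. The count of members became 1 under quantile scaling (1 higher, 0 lower), where 937 of 54200 transcripts were called. It was also 1 with libraries centred on their median or with ray-finned fish matches only (0 higher, 1 lower in each). Of 54200 transcripts, 1001 were called in the centred fit and 1746 in the fit used for the ray-finned fish matches. The direction of the calls thus differed between settings. Quantile scaling moved the day 30 small subunit median from -0.51 to 0.042 and the difference between subunits from -0.24 to -0.057. Of the alternatives added after the files were seen, naming genes by the Swiss-Prot gene name moved none of these values beyond the limits, and centring libraries on their median moved that count alone. Without 1 library, 0 to 2 members were called at day 14, 0 to 1 at day 30 and 0 between the later days. Over all transcripts, the fits without 1 library called from 138 to 3763 at day 14 and from 98 to 6605 at day 30. Between the later days they called from 0 to 2. The small subunit median then ran from -0.84 to -0.40 at day 14, from -0.68 to -0.17 at day 30 and from 0.05 to 0.38 between the later days. The large subunit median ran from -0.69 to -0.21, from -0.49 to 0.02 and from 0.09 to 0.34, and the difference between subunits from -0.33 to -0.12, from -0.33 to -0.025 and from -0.04 to 0.06. The cause of these shifts was not tested. With 3 fish a group and unknown depth, low transcripts are the least certain.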
